A study of Mus musculus with 24 samples.

Results

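The angiopoietin-like genes encode secreted proteins that resemble the angiopoietins, with a coiled-coil part and, in most of them, a fibrinogen-like domain. The genes considered were *Angptl1*, *Angptl2*, *Angptl4*, *Angptl6* and *Angptl7*, each read from a probe set that the array annotation assigns to that gene alone. Of these 5 genes, 3 (*Angptl1*, *Angptl4* and *Angptl7*) had such a probe set, among 18782 genes on the array that had one. *Angptl6* was listed only on 2 probe sets shared with *Shfl*, and *Angptl2* was not analysed here. Kidneys were taken from 12 week old BPH/2J mice, an inbred strain selected for high blood pressure, and from age-matched BPN/3J mice, its normotensive control strain, in both sexes and with no treatment. There were 24 arrays, 1 per mouse, with 6 in each of the 4 groups (BPH/2J males, BPN/3J males, BPH/2J females and BPN/3J females). The study set the strains against each other within each sex to find genes shared by hypertensive males and females. The strains are models of blood pressure that differ across the genome, and the array mice had no pressure readings of their own, so strain and blood pressure cannot be told apart.

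Angptl4 is an inhibitor of lipoprotein lipase, the enzyme that frees fatty acids from circulating triglyceride, and its gene is a known target of the peroxisome proliferator-activated receptors (PPARs) and of glucocorticoids. Angptl7 is best known from the eye, where it is made in the cornea and the trabecular meshwork, and human trabecular cells make more of it when given glucocorticoid. Angptl1 has been described as antiangiogenic. Unlike the angiopoietins, these proteins are not classical ligands of the Tie receptors.

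*Angptl7* differed between the strains by 4.09 log2 units in males and 4.86 in females, far more than the other 2 measured members. The bases around its start are shown, beside those of *Angptl1*, which was not called between the strains. Both come from RefSeq (GRCm38.p6), as 250 bases before and 50 bases after the start of the gene, and are given 5′ to 3′ on the strand of the gene. *Angptl7* lies on chromosome 4 at chr4:148500413-148500712 (minus strand) and *Angptl1* on chromosome 1 at chr1:156838773-156839072 (plus strand). Capitals mark a match to 1 of 4 motifs searched on both strands.
Angptl7: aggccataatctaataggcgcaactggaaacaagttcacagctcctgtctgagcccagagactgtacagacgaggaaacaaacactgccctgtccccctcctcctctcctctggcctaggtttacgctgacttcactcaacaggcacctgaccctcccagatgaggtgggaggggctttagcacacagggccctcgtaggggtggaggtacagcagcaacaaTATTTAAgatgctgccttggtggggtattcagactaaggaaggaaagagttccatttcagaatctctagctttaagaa
Angptl1: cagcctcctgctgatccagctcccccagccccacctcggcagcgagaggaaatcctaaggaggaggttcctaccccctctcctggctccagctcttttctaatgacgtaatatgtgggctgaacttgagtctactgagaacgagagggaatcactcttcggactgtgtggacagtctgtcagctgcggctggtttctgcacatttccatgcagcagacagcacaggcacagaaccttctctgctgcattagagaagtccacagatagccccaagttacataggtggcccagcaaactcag
The *Angptl7* window held the TATA-like run TATTTAA, beginning 28 bases before the start, which 4.51% of 32851 promoters of the same length contained on either strand. The letters TATAAA (13.6% of promoters), the glucocorticoid receptor half-site AGAACA (19% of promoters) and the nuclear receptor half-site AGGTCA (16.3% of promoters) were in neither window.

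The arrays measured RNA from whole kidney, in which fewer cells of a type and less RNA per cell cannot be told apart. The deposited values are log2 expression after robust multiarray analysis (RMA), a method that corrects the background, sets the arrays on a common scale and summarises the probes of each probe set. Array medians were 6.89 to 6.97, and arrays of a group correlated at r = 0.981 to 0.997 over 28853 probe sets. Genes of the kidney tubule averaged 12.67 to 12.83 in every array. Genes of neighbouring tissues varied within groups. Over 12 hepatocyte genes the mean lay between 6.54 and 9.78 outside the BPN/3J females, whose arrays 2 and 5 were far above the rest of their group (6.30 to 12.10). Over 8 adrenal cortex genes the means of the 24 arrays lay between 5.37 and 10.23. A strain difference was called at a Bonferroni-adjusted p under 0.05 over all probe sets in limma, the level of the study's methods, and a sex difference or interaction at a Benjamini-Hochberg adjusted p under 0.05. Precision is limited by the number of arrays.

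In males, *Angptl7* expression had a lowest value of 12.67, a median of 12.78 and a highest value of 12.89 in BPH/2J kidneys. In BPN/3J males the lowest was 8.17, the median 8.75 and the highest 9.05. The groups lay far apart, with a gap of 3.62 log2 units between the lowest BPH/2J male and the highest BPN/3J male. The excess in BPH/2J males was 17.0-fold (log2 difference 4.09, SE 0.132, 95% interval of the fold 14.0 to 20.7, limma with Bonferroni-adjusted p = 3.53e-09, n = 6 per strain). Among 18782 genes this was the third in size, in either direction.

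In females, *Angptl7* ranged from 11.84 to 12.19 with a median of 11.96 in BPH/2J kidneys, and from 6.85 to 7.35 with a median of 7.19 in BPN/3J kidneys. The groups again did not overlap, and the gap was 4.49 log2 units. The excess in BPH/2J females was 29.1-fold (log2 difference 4.86, SE 0.0934, 95% interval of the fold 25.3 to 33.5, limma with Bonferroni-adjusted p = 1.01e-11, n = 6 per strain). No gene of the 18782 had a larger strain difference in females. In each sex the exact two-sided permutation test gave p = 0.00216, the smallest that 924 regroupings of 6 against 6 allow.

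*Angptl7* expression also differed between the sexes, and in the same direction in both strains. It was lower in females than in males of BPH/2J, at 11.99 ± 0.139 against 12.78 ± 0.0797 (mean ± SD, n = 6 each), a log2 difference of -0.79 (SE 0.0637, limma with Benjamini-Hochberg adjusted p = 9.67e-07). It was lower in females than in males of BPN/3J as well, at 7.12 ± 0.204 against 8.69 ± 0.353 (n = 6 each), a log2 difference of -1.56 (SE 0.150, limma with Benjamini-Hochberg adjusted p = 4.54e-06). Neither pair overlapped, with gaps of 0.482 in BPH/2J and 0.821 in BPN/3J. The 4 groups therefore stood in the order BPH/2J males, BPH/2J females, BPN/3J males and BPN/3J females, and no neighbours in this order overlapped.

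The strain difference of *Angptl7* was larger in females than in males, by 0.77 on the log2 scale (SE 0.170, limma interaction over 24 arrays, Benjamini-Hochberg adjusted p = 0.0145). Without BPN/3J female arrays 2 and 5, which had the high hepatocyte genes, the interaction was 0.65 (adjusted p = 0.0596). With the means of the hepatocyte, adrenal cortex and adipocyte genes as covariates it was 0.34 (adjusted p = 0.735). The adipocyte mean had a strain by sex interaction of its own, of 0.772, and did not overlap between the strains in females. This fit therefore cannot tell the *Angptl7* interaction and the adipocyte mean apart. The strain difference itself stayed called with these covariates, at 4.01 in males and 4.56 in females.

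**Figure D1:**
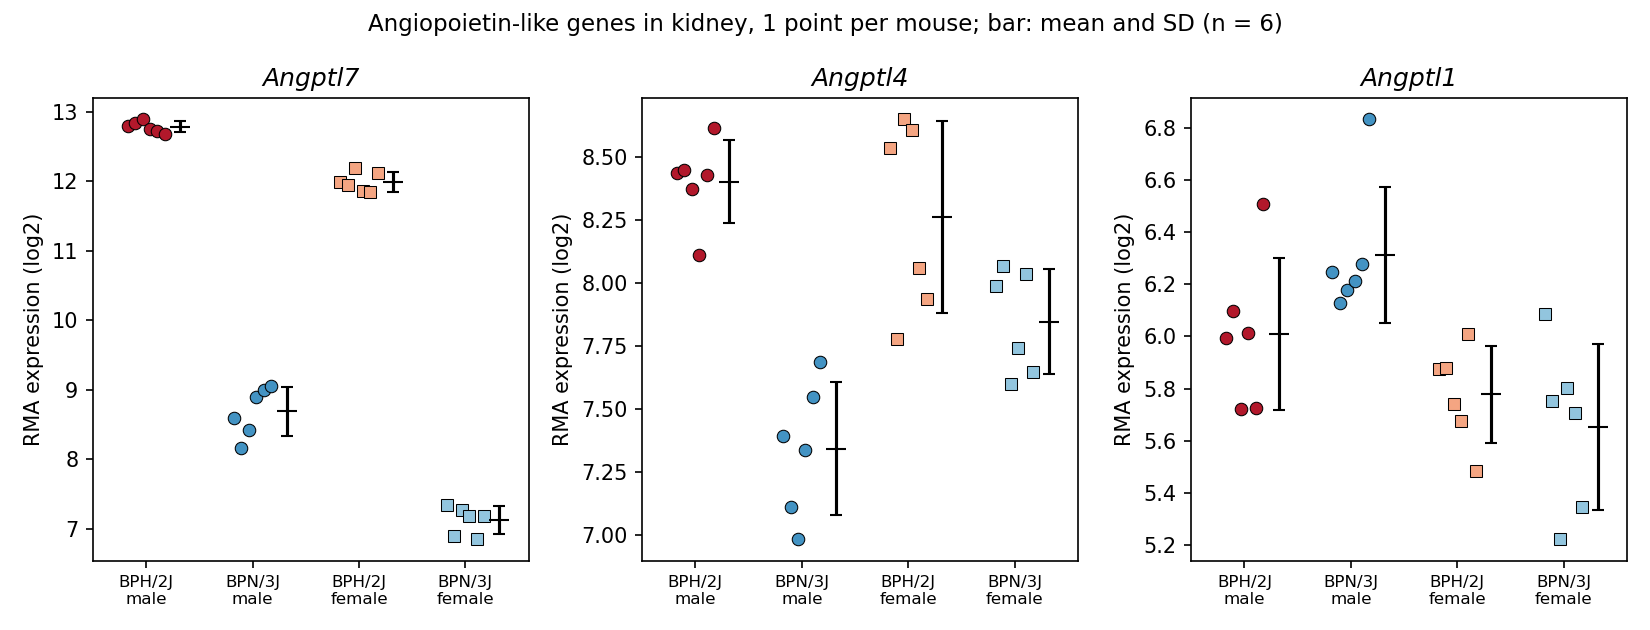
RMA expression (log2, vertical axis) of *Angptl7*, *Angptl4* and *Angptl1* in each of the 4 groups, 1 point per mouse, with the group mean and SD (n = 6) as a bar beside the points. *Angptl7* lies at 11.84 or above in every BPH/2J kidney and at 9.05 or below in every BPN/3J kidney, while the strains overlap for *Angptl1* in both sexes and for *Angptl4* in females. The vertical scales differ between panels.

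*Angptl4* was higher in BPH/2J males. Its expression was 8.11 to 8.62 with a median of 8.43 in BPH/2J males, against 6.98 to 7.69 with a median of 7.37 in BPN/3J males. The groups did not overlap, and the gap was 0.425. The difference was 2.08-fold (log2 difference 1.06, SE 0.114, 95% interval of the fold 1.76 to 2.47, limma with Bonferroni-adjusted p = 0.0116, n = 6 per strain; exact permutation p = 0.00216). This call was close to the threshold: it was lost when any 1 of BPH/2J male arrays 1, 2 and 5 or BPN/3J male arrays 1 and 4 was left out, at adjusted p-values of 0.0504 to 0.0609 and log2 differences of 1.05 to 1.07. It was also lost with the two-sided test of the study's methods, at a Bonferroni-adjusted p of 0.693, and with the replicate block, at 0.0613.

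In females *Angptl4* expression was 7.78 to 8.65 with a median of 8.30 in BPH/2J, against 7.60 to 8.07 with a median of 7.87 in BPN/3J. The groups overlapped. The log2 difference of 0.42 (SE 0.159, 95% interval 0.07 to 0.76, n = 6 per strain) did not pass the test (limma, Bonferroni-adjusted p = 1, Benjamini-Hochberg adjusted p = 0.112), with an exact two-sided permutation p of 0.0498. That the strain difference is smaller in females was not shown, since the interaction of -0.64 (SE 0.206) had a Benjamini-Hochberg adjusted p of 0.129 in limma.

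Between the sexes *Angptl4* was higher in BPN/3J females than in BPN/3J males by 0.50 on the log2 scale (SE 0.124, limma with Benjamini-Hochberg adjusted p = 0.00766), with means of 7.85 in females and 7.34 in males and with overlapping groups. In BPH/2J the mean was 8.26 in females and 8.40 in males, a log2 difference of -0.14 with a 95% interval of -0.47 to 0.19 (limma, Benjamini-Hochberg adjusted p = 0.558). In the order of the group means, BPH/2J males, BPH/2J females, BPN/3J females and BPN/3J males, each group overlapped the next.

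*Angptl1* was not called between the strains. In males it was 5.72 to 6.51 with a median of 6.0 in BPH/2J and 6.13 to 6.83 with a median of 6.23 in BPN/3J, a log2 difference of -0.30 with a 95% interval of -0.61 to 0.00 (limma, Benjamini-Hochberg adjusted p = 0.195). In females it was 5.48 to 6.01 with a median of 5.81 in BPH/2J and 5.22 to 6.09 with a median of 5.73 in BPN/3J, a log2 difference of 0.12 with a 95% interval of -0.17 to 0.42 (limma, Benjamini-Hochberg adjusted p = 0.633). The strains overlapped in both sexes. *Angptl1* was lower in females than in males of BPN/3J, with means of 5.65 in females and 6.31 in males, a log2 difference of -0.66 (SE 0.151, limma with Benjamini-Hochberg adjusted p = 0.00470) and a gap of only 0.043 between the groups. In BPH/2J the difference was -0.23 (95% interval -0.51 to 0.04, limma, Benjamini-Hochberg adjusted p = 0.206).

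The 2 probe sets shared by *Shfl*, an antiviral inhibitor of frameshifting, and *Angptl6* cannot be assigned to either gene. Between the strains they pointed in opposite directions and neither was called. The first had log2 differences of 0.13 in males (95% interval -0.03 to 0.29) and 0.08 in females (95% interval -0.04 to 0.19), and the second had -0.12 in males (95% interval -0.27 to 0.02) and -0.06 in females (95% interval -0.22 to 0.11). Both were higher in females than in males of BPH/2J, by 0.22 and 0.20 on the log2 scale (limma, Benjamini-Hochberg adjusted p = 0.0163 and 0.0429). In BPN/3J the first was higher in females by 0.27 (adjusted p = 0.00793), and the second had a difference of 0.14 (adjusted p = 0.204).

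Of the 3 genes measured on their own, 2 were called between the strains in males, where 2.56% of all probe sets were called, and 1 in females, where 2.36% were called. Between the sexes 1 was called in BPH/2J (28.9% of all probe sets) and 3 in BPN/3J (29.2%). The interaction was called for 1 (1.76%). Groups did not overlap for 2 of 3 genes between the strains in males (9.65% of all probe sets), 1 of 3 in females (9.34%), 1 of 3 between the sexes of BPH/2J (18.2%) and 2 of 3 between those of BPN/3J (17.6%).

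**Figure D2:**
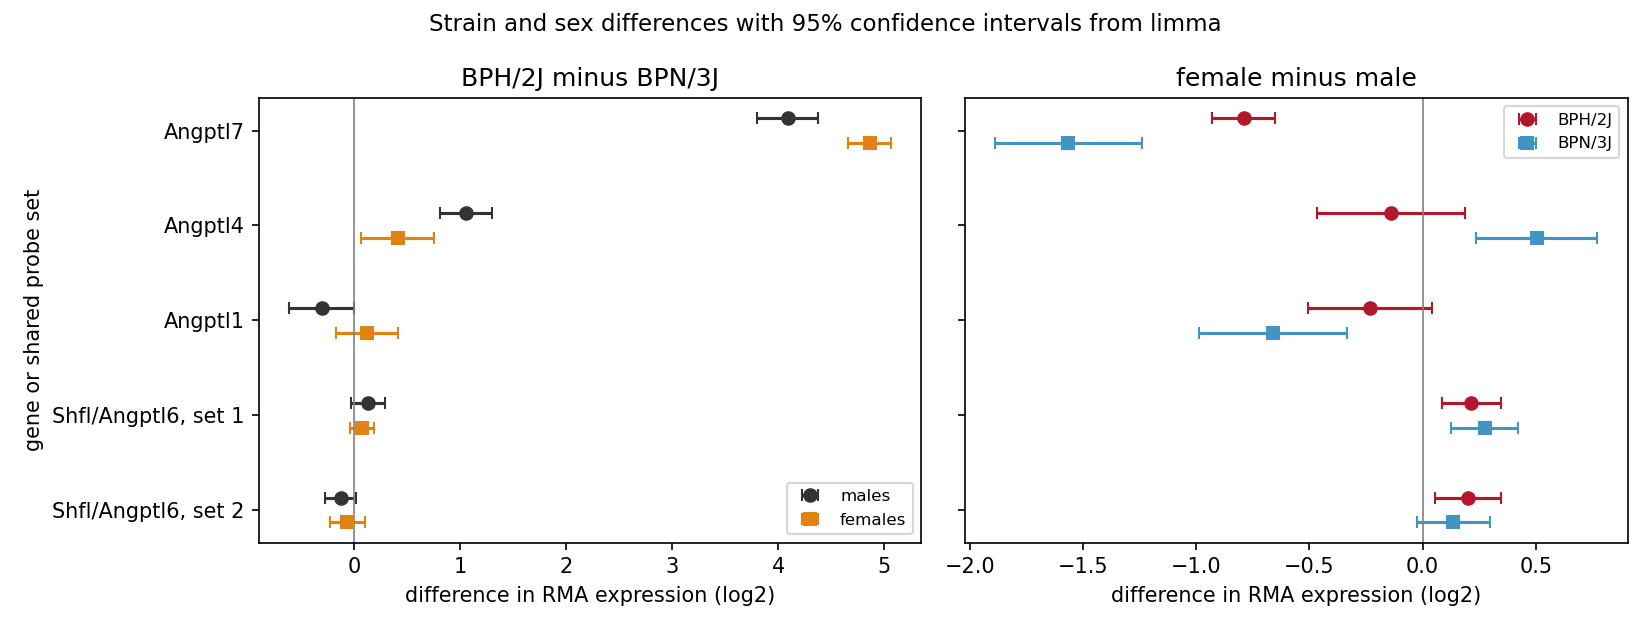
Differences in RMA expression (log2, horizontal axis) for *Angptl7*, *Angptl4*, *Angptl1* and the 2 probe sets shared by *Shfl* and *Angptl6*, as BPH/2J minus BPN/3J in each sex (left) and female minus male in each strain (right). Points are limma estimates and bars their 95% intervals (n = 6 per group). The strain differences of *Angptl7*, 4.09 and 4.86, stand apart from the others, and *Angptl4* in males follows at 1.06.

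The genes around *Angptl7* were not higher in BPH/2J. *Angptl7* lies within the span of *Mtor*, the gene of the growth-controlling kinase mTOR. *Mtor* expression was 10.97 to 11.26 with a median of 11.14 in BPH/2J males, against 11.49 to 11.77 with a median of 11.60 in BPN/3J males. The groups did not overlap, and the difference of -0.48 (SE 0.0638) was opposite in sign to that of *Angptl7*. It missed the Bonferroni threshold (limma, adjusted p = 0.110, Benjamini-Hochberg adjusted p = 0.000128). In females the log2 difference of *Mtor* was -0.23 (SE 0.0506, limma, Bonferroni-adjusted p = 1, Benjamini-Hochberg adjusted p = 0.00705), with means of 10.56 in BPH/2J and 10.79 in BPN/3J.

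By sex, *Mtor* and *Angptl7* had the same sign. *Mtor* was lower in females than in males by 0.57 in BPH/2J and by 0.82 in BPN/3J on the log2 scale (limma, Benjamini-Hochberg adjusted p = 5.34e-06 and 3.41e-07). Whether a probe of one of the 2 genes also reads RNA of the other was not tested, since probe positions were not used here. *Disp3* and *Exosc10*, the nearest measured genes on either side, had strain differences between -0.06 and 0.03, and none was called.

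**Figure D3:**
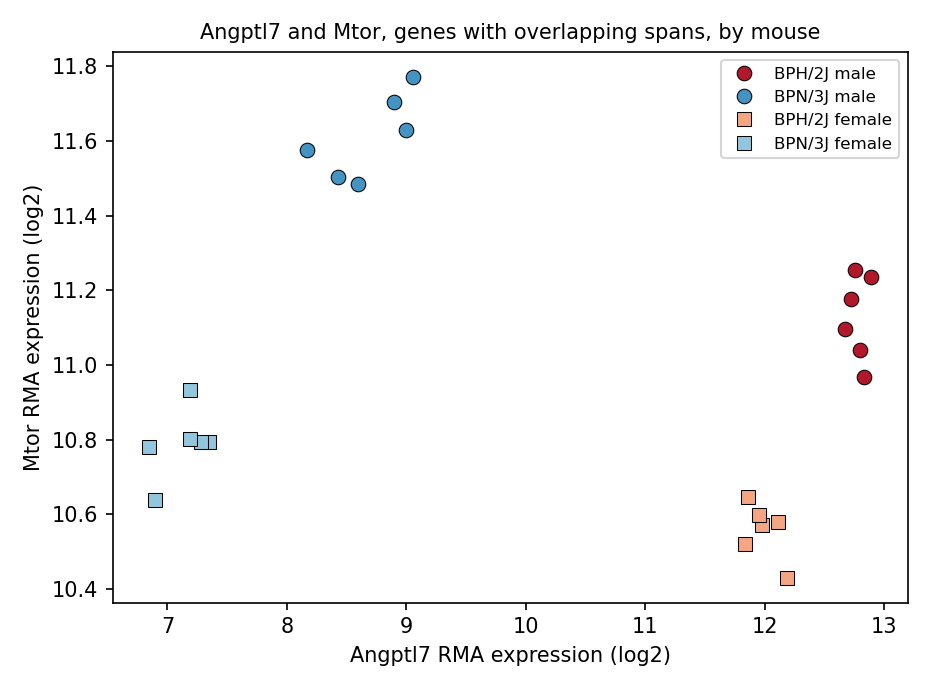
RMA expression (log2) of *Angptl7* (horizontal axis) and *Mtor* (vertical axis) in the 24 kidneys, coloured by group, 1 point per mouse. Between strains *Mtor* is lower where *Angptl7* is higher (11.13 in BPH/2J males and 11.61 in BPN/3J males on average), whereas both are lower in females than in males of the same strain.

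The neighbours of the other members were for the most part flat between the strains. *Rab11b* and *Kank3*, on either side of *Angptl4*, had log2 strain differences of 0.01 and 0.02 in males, where *Angptl4* differed by 1.06, and of 0.07 and -0.03 in females. *Ralgps2*, whose span overlaps *Angptl1*, had a difference of -0.09 in males and of -0.22 in females (limma, Bonferroni-adjusted p = 1, Benjamini-Hochberg adjusted p = 0.00727 in females). *Fam20b*, *Tex35*, *Rdh8*, *Ppan*, *Garnl3* and *Zbtb34*, which flank *Angptl1*, *Angptl6* and *Angptl2*, were not called between the strains in either sex.

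Genes whose expression followed that of *Angptl7* over the 24 arrays were *Leprotl1* (r = 0.979), *Tmco1* (r = 0.973), *Dhtkd1* (r = 0.973), *Rtf1* (r = 0.970) and *Acp5* (r = 0.967). These arrays share their strain and sex groups, so the correlations are given as a description. The 5 were picked for likeness to a gene that separates the strains, so a strain call was close to given. All 5 were called between the strains in both sexes (2.56% of all probe sets in males and 2.36% in females). Their log2 differences were 0.41 to 0.82 in males and 0.47 to 0.87 in females, against 4.09 and 4.86 for *Angptl7*. After the group means were taken away, the most similar genes were others, *Ssxb5* (r = 0.782), *Ttbk2* (r = 0.728), *Pirt* (r = 0.725), *Olfr1131* (r = 0.724) and *Rps29* (r = 0.711). *Ssxb5* and *Olfr1131* had low signal, with group means of 3.00 to 3.69 against array medians of 6.89 to 6.97.

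*Angptl4* was most like *A2m* (r = 0.878), *Sorbs3* (r = 0.857) and *Ifi35* (r = 0.853) over the 24 arrays. Within groups it was most like *Myc* (r = 0.769), *Olfr153* (r = 0.752) and *Pdk4* (r = 0.748), of which *Olfr153* had low signal (group means 3.81 to 4.10). *Angptl1* was most like *Il5ra* (r = 0.838), *1700037H04Rik* (r = 0.783) and *Rex1bd* (r = 0.763), and within groups most like *Actg2* (r = 0.783), *C1qc* (r = 0.726) and *Rimbp2* (r = 0.700). All of these genes, and those named for *Angptl7*, were picked as the highest correlations among 18782 genes. How high such a maximum would be by chance was not tested.

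*Pdk4*, the kinase that shuts down pyruvate dehydrogenase when fatty acids are burned, was higher in BPH/2J in both sexes on the Benjamini-Hochberg threshold. In males it was 9.39 to 10.22 with a median of 10.10 in BPH/2J, against 8.67 to 9.42 with a median of 9.11 in BPN/3J, a log2 difference of 0.91 (SE 0.163, limma, Bonferroni-adjusted p = 1, Benjamini-Hochberg adjusted p = 0.00161). In females it was 9.90 to 11.24 with a median of 10.50 in BPH/2J, against 9.38 to 10.15 with a median of 9.89 in BPN/3J, a log2 difference of 0.67 (SE 0.196, limma, Bonferroni-adjusted p = 1, Benjamini-Hochberg adjusted p = 0.0361). The groups overlapped in both sexes.

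*Pdk4* belongs to a list of 28 genes of the PPARs and the glucocorticoid receptor with their targets, of which 24 were measured. At the Bonferroni threshold 1 of them was higher and 2 were lower in BPH/2J males, where 1.14% of all probe sets were higher and 1.43% lower. In females 0 were called in either direction (1.07% and 1.29% of all probe sets), and 0 by the two-sided test of the study's methods. In limma 16 had an unadjusted p under 0.05 in females. The share of all probe sets at that unadjusted level was not counted, so no excess is read from this. At the Benjamini-Hochberg threshold of 0.05, 8 were higher and 5 lower in males, where 7.48% of all probe sets were higher and 7.7% lower. In females 8 were higher and 3 lower (8.01% and 6.48% of all probe sets). The median log2 difference of the list was 0.02 in males and -0.01 in females, against 0.00 and 0.02 over all genes.

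The 3 genes called by Bonferroni in males were *Cyp4a14*, a fatty acid hydroxylase, *Plin2*, which coats lipid droplets, and *Fkbp5*, a chaperone partner induced by glucocorticoids. *Cyp4a14* was higher in BPH/2J males, at 7.41 to 8.91 with a median of 8.04 in BPH/2J and 5.98 to 6.74 with a median of 6.30 in BPN/3J (log2 difference 1.73, SE 0.211, limma, Bonferroni-adjusted p = 0.0461). This call was lost in 10 of the 12 fits with 1 array left out, and also with the two-sided test of the study's methods (adjusted p = 1), the replicate block (0.883), marker covariates (0.378) and a trended variance (0.358). *Plin2* was lower in BPH/2J males, at 9.37 to 9.81 with a median of 9.59 in BPH/2J and 10.54 to 10.85 with a median of 10.62 in BPN/3J (log2 difference -1.10, SE 0.0755, limma, Bonferroni-adjusted p = 4.95e-05). *Fkbp5* was lower too, at 9.32 to 9.62 with a median of 9.43 in BPH/2J and 10.11 to 10.50 with a median of 10.34 in BPN/3J (log2 difference -0.87, SE 0.0764, limma, Bonferroni-adjusted p = 0.00110), a call that was lost with the two-sided test of the study's methods (adjusted p = 0.121).

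Of these 3 genes, *Cyp4a14* was higher and *Plin2* and *Fkbp5* were lower in BPH/2J males. The strains overlapped for none of the 3 in males, where groups did not overlap for 9.65% of all probe sets. The 3 were named because they were called in males, so this lack of overlap was close to given. Activity of the receptors was not tested. Singled out after their values were seen, the fatty acid genes *Acadl*, *Vnn1*, *Slc25a20* and *Acot2* were higher in BPH/2J in both sexes, by 0.20 to 0.43 in males and 0.24 to 0.33 in females on the log2 scale. *Tsc22d3*, a glucocorticoid-induced leucine zipper gene, was lower in both, with differences of -0.35 in males and -0.26 in females. These were called at the Benjamini-Hochberg threshold in limma, with adjusted p-values up to 0.0270.

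For this list the interaction was called for 4 genes with a more positive strain difference in females (0.918% of all probe sets) and 2 with a more negative one (0.842%). The 4 were *Pparg*, *Plin2*, *Ucp3* and *Fkbp5*, and the 2 were *Cyp4a14* and *Ehhadh*. *Pparg*, the gene of the PPAR that drives fat cell formation, had log2 strain differences of -0.75 in males (limma, Bonferroni-adjusted p = 0.0513, Benjamini-Hochberg adjusted p = 6.89e-05) and 0.28 in females, and an interaction of 1.03 (SE 0.135, Benjamini-Hochberg adjusted p = 4.49e-05).

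The lipoprotein lipase system, on which Angptl4 acts, was also examined. Of 20 genes 17 were measured, and 0 were called by Bonferroni in either sex, by limma or by the two-sided test of the study's methods. In limma 9 had an unadjusted p under 0.05 in males and 6 in females. The share of all probe sets at that unadjusted level was not counted, so no excess is read from these counts. At the Benjamini-Hochberg threshold 1 was higher and 4 were lower in BPH/2J males (7.48% and 7.7% of all probe sets), and 1 was higher and 1 lower in females (8.01% and 6.48%), where these counts are near the background. The median log2 difference was -0.06 in males and -0.13 in females, against 0.00 and 0.02 over all genes. *Lpl*, the lipase itself, had log2 differences of -0.06 in males (95% interval -0.24 to 0.13) and -0.05 in females (95% interval -0.16 to 0.06).

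Among the lipase genes that passed the Benjamini-Hochberg threshold, *Furin*, a protease that cleaves Angptl4, was lower by 0.19 in males and by 0.18 in females on the log2 scale (limma, adjusted p = 0.00589 and 0.0132). *Gpihbp1*, which carries the lipase across the endothelium, was lower in BPH/2J males by 0.24 (adjusted p = 0.0447), and the protease gene *Pcsk5* by 0.22 (adjusted p = 0.00993). *Lrp1*, a lipoprotein receptor, was higher in BPH/2J males by 0.23 (adjusted p = 0.0168). *Fabp4*, an adipocyte fatty acid carrier, was higher in BPH/2J females by 0.60 (adjusted p = 0.00676).

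*Angptl8*, a further member of the wider family that lacks the fibrinogen-like domain, had levels of 6.71 to 7.03 with a median of 6.89 in BPH/2J males, against 7.13 to 7.72 with a median of 7.38 in BPN/3J males. The groups did not overlap, and the log2 difference was -0.51 (SE 0.0953, limma, Bonferroni-adjusted p = 1, Benjamini-Hochberg adjusted p = 0.00210). In females it was 7.37 to 7.86 in BPH/2J and 7.67 to 9.28 in BPN/3J, where the highest values, 8.56 and 9.28, were those of arrays 2 and 5. The hepatocyte mean in those 2 arrays was 11.84 and 12.10, against 6.30 to 7.05 in the other 4. The female strain difference of -0.58 was not called (limma, Benjamini-Hochberg adjusted p = 0.149). It was -0.35 without array 5 of the BPN/3J females, -0.20 without arrays 2 and 5, and -0.75 with the marker means as covariates, and was not called in any of these fits.

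Of the angiopoietins, other genes with a fibrinogen-like domain and receptors, 23 of 24 were measured. By Bonferroni 0 were called between the strains, by limma or by the two-sided test of the study's methods. In limma 7 had an unadjusted p under 0.05 in males and 4 in females. The share of all probe sets at that unadjusted level was not counted, so no excess is read from these counts. At the Benjamini-Hochberg threshold 3 were higher and 0 lower in BPH/2J in each sex, where 7.48% of all probe sets were higher in males and 8.01% in females. The median log2 difference was 0.04 in males and 0.00 in females, against 0.00 and 0.02 over all genes. *Tnc*, the matrix protein tenascin C, was higher by 0.34 in males and 0.29 in females, and *Itgb5*, an integrin subunit, by 0.15 and 0.18 (limma, Benjamini-Hochberg adjusted p between 0.00605 and 0.0328). *Itgb3* was the other gene in males and *Tnn* the other in females.

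Between the sexes, 10 genes of this list were higher and 1 lower in BPH/2J females, where 15.6% of all probe sets were higher and 13.4% lower. In BPN/3J females 9 were higher and 0 lower (14.4% and 14.8% of all probe sets). They included the angiopoietin genes *Angpt1* (0.23 in both strains) and *Angpt2* (0.44 in BPH/2J and 0.35 in BPN/3J) and the receptor gene *Tek* (0.17 and 0.20), as log2 differences of female minus male, which is the opposite sign to that of *Angptl7*. Of the lipase genes 6 were higher and 3 lower in BPH/2J females, and 6 were higher and 4 lower in BPN/3J females. Of the PPAR and glucocorticoid genes 7 were higher and 5 lower in BPH/2J females, and 7 were higher and 9 lower in BPN/3J females.

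**Figure D4:**
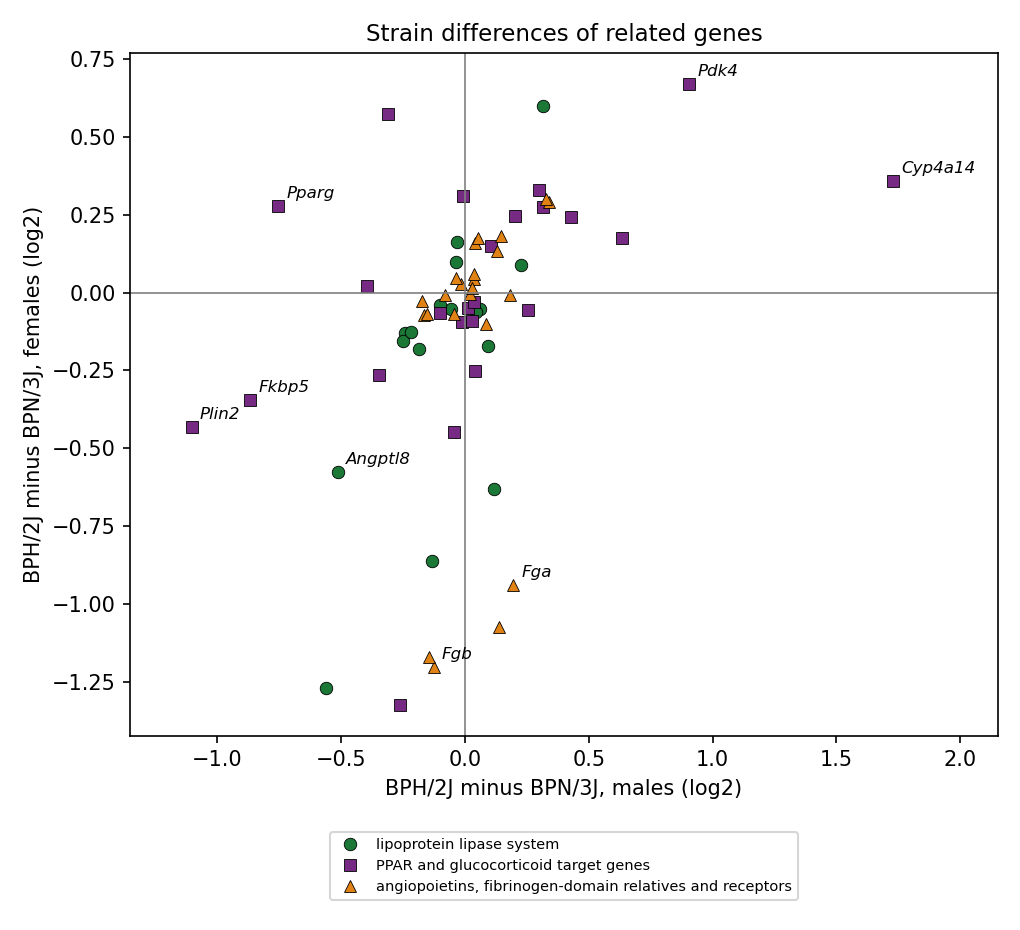
Strain differences (BPH/2J minus BPN/3J, log2) in males (horizontal axis) and females (vertical axis) for the measured genes of the 3 related lists, 1 point per gene. *Pdk4* and *Cyp4a14* are higher and *Plin2* and *Fkbp5* lower in BPH/2J males. The lowest points on the vertical axis are *Fabp1* at -1.32 and *Apoc3* at -1.27, and *Fga* and *Fgb*, which are also in the hepatocyte list, lie at -0.94 and -1.20. None of these 4 was called in females (limma, Benjamini-Hochberg adjusted p between 0.234 and 0.650).

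Markers of other cell types also moved with strain. Over 9 adipocyte genes the mean lay between 8.77 and 9.66 in BPH/2J females, against 7.91 to 8.71 in BPN/3J females, a log2 difference of 0.92 with no overlap, and 5 of the 9 genes were higher in limma at the Benjamini-Hochberg threshold (8.01% of all probe sets; exact permutation p = 0.00216). The brown fat gene *Ucp1*, a member of this list, had the values 7.78 to 10.51 in BPH/2J females, against 5.22 to 6.35 in BPN/3J females (log2 difference 3.50, SE 0.435, limma, Benjamini-Hochberg adjusted p = 9.64e-05), and a difference of -0.08 in males. In males the mean of the 9 adipocyte genes lay between 8.51 and 9.03 in BPH/2J and between 7.78 and 8.97 in BPN/3J. The difference was 0.15 (exact permutation p = 0.517), with 0 genes higher and 1 lower (7.48% and 7.7% of all probe sets). The list members *Adipoq* and *Plin1* had log2 differences of 0.53 (95% interval 0.04 to 1.02) and 0.43 (95% interval -0.07 to 0.94) in males. Neither was called there (limma, Benjamini-Hochberg adjusted p = 0.150 and 0.270). *Angptl4*, which adipocytes also make, had strain differences of 1.06 in males and 0.42 in females. With the hepatocyte, adrenal cortex and adipocyte means as covariates, the *Angptl4* difference was 0.96 in males (Bonferroni-adjusted p = 0.0253 in limma) and 0.45 in females (adjusted p = 1).

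**Figure D5:**
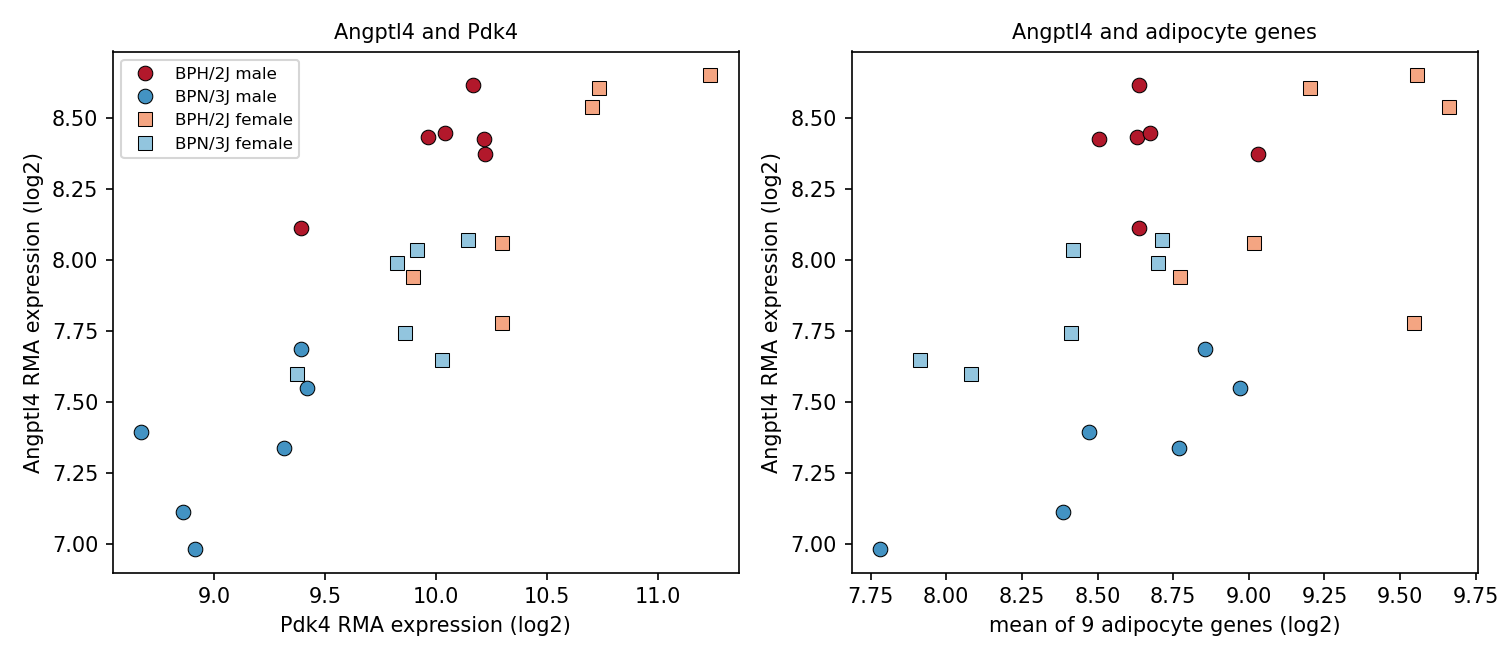
RMA expression (log2, vertical axis) of *Angptl4* against *Pdk4* (left) and against the mean of 9 adipocyte genes (right) in the 24 kidneys, coloured by group, 1 point per mouse. In males the adipocyte means of the strains overlap, at 8.51 to 9.03 in BPH/2J and 7.78 to 8.97 in BPN/3J, while the *Angptl4* values do not. Whether adipocytes have a part in the *Angptl4* difference was not tested.

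Of 12 measured genes of fibroblasts and dense connective tissue, 4 were higher in BPH/2J in each sex and 8 did not pass the test. Their mean lay between 7.37 and 7.47 in BPH/2J males, against 7.08 to 7.27 in BPN/3J males, a log2 difference of 0.25 with 4 genes higher and 0 lower at the Benjamini-Hochberg threshold (7.48% and 7.7% of all probe sets). In females it was 7.50 to 7.62 in BPH/2J and 7.24 to 7.44 in BPN/3J, a difference of 0.23 with 4 higher and 0 lower (8.01% and 6.48% of all probe sets; exact permutation p = 0.00216 in each sex). The gene of the collagen-binding proteoglycan fibromodulin, *Fmod*, was higher by 1.13 in males and 0.83 in females, whereas the tendon and cartilage genes *Tnmd*, *Comp* and *Chad* had differences between -0.11 and 0.10. Over 9 vascular smooth muscle and pericyte genes the mean was above that of BPN/3J by 0.25 in males and 0.31 in females. Of 8 macrophage genes, 3 were lower and 0 higher in BPH/2J males at the same threshold (7.7% and 7.48% of all probe sets). In BPH/2J females 2 were lower and 0 higher (6.48% and 8.01%). The mean of the 8 differed by -0.10 in males (exact permutation p = 0.0346) and -0.17 in females (exact permutation p = 0.110). Whether the cells marked by these 3 lists have a part in the *Angptl7* difference was not tested.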

How the data were processed

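Kidney RNA from 24 mice was hybridised to Affymetrix Mouse Gene 1.0 ST arrays. RMA was applied by the authors, whose log2 expression values were used as deposited (the sources used here give no RMA version). Gene names came from the array's platform annotation: 21159 of 28853 probe sets had 1 symbol, 1881 several and 5813 none.

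Strains were compared within sex, and sexes within strain, by limma 3.58.1 (R 4.3.3) on 12 arrays, and the interaction on 24, with p-values adjusted over all probe sets (Bonferroni for strain, Benjamini-Hochberg otherwise, threshold 0.05). Exact permutation tests were two-sided. Named genes were the members, the 5 genes (3 for members other than *Angptl7*) most correlated with each, neighbours in GRCm38.p6, genes of the lists called by Bonferroni (others were chosen after their values were seen) and markers. Members and lists were chosen with earlier results of these data known. On simulated data a 2-fold strain change was recovered for 86% of 50 changed probe sets in males and 96% in females. A 1.5-fold change was recovered for 60% and 56%. Both sexes were simulated with the same variances, averaged over the 4 groups, so these shares do not compare the sexes. Alternatives were the t-test of the methods, the other adjustment, a filter on dim probe sets, probe sets with 1 symbol, median and quantile scaling, all arrays in 1 fit, other variance settings, a replicate block, marker covariates and left-out arrays. Quantitative PCR and blood pressure were not analysed here. Promoters were RefSeq's.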

Additional observations from a re-analysis of the deposited data

Results flagged for a closer look

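*Angptl1* had 1 array that stood apart in BPN/3J males, at 6.83 with the next array at 6.28, so that this gap took a share of 0.793 of the group's range. The first probe set shared by *Shfl* and *Angptl6* had 1 low array in BPH/2J females, at 7.23 with the next at 7.35, a share of 0.778 of the range. Shares above Dixon's 95% critical value for 6 arrays were marked, 20 groups were looked at, and chance marks about 1 group in 20. The strain difference of *Angptl7* was larger in females than in males by 0.774 on the log2 scale, by the limma interaction term, and this call was not kept without BPN/3J female arrays 2 and 5.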

How the results depend on the processing

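For *Angptl1*, *Angptl4* and *Angptl7*, 351 of 364 comparisons with an alternative kept the direction and the call, and 1 reversed. The *Angptl7* strain difference was called under every alternative run, at 4.01 to 4.09 in males and 4.56 to 4.90 in females, and at 3.98 to 4.16 and 4.81 to 4.91 with 1 array left out. Of the 3 members, 1 instead of 2 was called between male strains with the t-test of the methods (*Angptl4* Bonferroni-adjusted p = 0.693) and with the replicate block (*Angptl4* adjusted p = 0.0613), and 1 to 2 with 1 array left out. Under Bonferroni 1 instead of 3 was called between the sexes of BPN/3J and 0 for the interaction, which was also 0 with marker covariates and without BPN/3J female arrays 2 and 5. The *Angptl1* female strain difference reversed to -0.27 with marker covariates. With Benjamini-Hochberg adjustment the strain calls were 5 lipase, 13 PPAR and glucocorticoid and 3 angiopoietin-list genes in males, and 2, 11 and 3 in females. The PPAR and glucocorticoid calls in males were 1 with the t-test, 5 with trended and robust variance, and 2 to 3 with 1 array left out. The cause of these changes was not tested. Same-numbered mice are different animals, and their deviations from the group means correlated at -0.57 to 0.44. Of 6 BPH/2J female arrays, 4 correlated best with the BPN/3J female array of their own number. For BPN/3J females against BPN/3J males this was 2 of 6. It was 0 of 6 between male strains and between the sexes of BPH/2J. What same-numbered arrays share was not tested. The block changed no other call of a member or list count by over 1.5 times. Dim probe sets left out removed *Angptl1*, and no member had another probe set of its own. The number of arrays and low signal, as for *Angptl1*, limit the smallest difference that can be called.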
